A study of Rattus norvegicus with 8 samples.

Results

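Chemokines, interleukins and their receptors were examined in purified rat retinal ganglion cells (RGCs), which send the signal of the retina through the optic nerve to the brain. The genes were taken by name: every symbol in the probe annotation that starts with Ccl, Ccr, Cxcl, Cxcr or Ackr and a digit, or with Il and a digit, other than Il6 and Il6st. The rule gave 107 of the 14871 named genes on the array, made up of 19 CC chemokine ligands, 11 CXC chemokine ligands, 16 chemokine receptors, 28 interleukins and 33 interleukin receptors or binding proteins. Of these, 58 had a spot with a value on all 8 arrays and 49 had none. The family was taken up because 1 of its members, Ackr3, had stood out in this same comparison, so the differences below are given as a description and carry no test of their own.

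The study compared RGCs from the rats' hypertensive eyes (chronic ocular hypertension, COH, a glaucoma model) with RGCs from their fellow eyes at normal pressure. Each of the 4 COH and 4 control samples came from pooled animals, and the same replicate number joins both eyes of a pool into a pair. RNA was amplified in 2 rounds and hybridised, always in the same dye, against Rat Universal Reference RNA on two-colour arrays, and values below are log2 ratios (RGC over reference). Strain, age, the number of animals per pool and the way in which the pressure was raised are not stated in the labels.

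Chemokines are small secreted proteins that steer cells along a gradient. They are sorted by the spacing of their first cysteines into CC and CXC ligands and act through receptors coupled to G proteins. Atypical receptors such as Ackr3 bind chemokines without that coupling and take them up, which shapes the gradient for the signalling receptors. Interleukins are cytokines first described in white blood cells. In the retina, microglia, Muller glia and infiltrating leukocytes are known sources of both, and neurons carry some of their receptors.

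The axis on which the description turns has 3 genes: the ligand Cxcl12, its signalling receptor Cxcr4 and its atypical receptor Ackr3. The 250 bases before the start of each gene are shown with those of Ccl7, the CC ligand described with its neighbour Ccl2 below, to set the promoter types of these genes side by side. They come from RefSeq (GRCr8), run 5′ to 3′ in the direction of the gene, and have in capitals each match to TATAAA or GGGCGG on either strand. They lie at chr9:98247104-98247353 (plus strand) for Ackr3, chr4:152060531-152060780 (plus) for Cxcl12, chr13:42634289-42634538 (minus) for Cxcr4 and chr10:67513845-67514094 (plus) for Ccl7.
Ackr3: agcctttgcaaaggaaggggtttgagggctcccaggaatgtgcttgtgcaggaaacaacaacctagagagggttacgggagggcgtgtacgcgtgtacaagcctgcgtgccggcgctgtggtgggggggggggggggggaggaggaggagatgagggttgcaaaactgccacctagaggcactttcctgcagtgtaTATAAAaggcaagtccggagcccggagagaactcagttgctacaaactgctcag
Cxcl12: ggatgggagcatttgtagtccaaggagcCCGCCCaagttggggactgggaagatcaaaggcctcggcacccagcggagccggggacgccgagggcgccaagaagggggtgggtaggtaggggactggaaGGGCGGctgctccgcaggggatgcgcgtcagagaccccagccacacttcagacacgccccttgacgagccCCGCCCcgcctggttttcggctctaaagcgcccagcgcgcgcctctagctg
Cxcr4: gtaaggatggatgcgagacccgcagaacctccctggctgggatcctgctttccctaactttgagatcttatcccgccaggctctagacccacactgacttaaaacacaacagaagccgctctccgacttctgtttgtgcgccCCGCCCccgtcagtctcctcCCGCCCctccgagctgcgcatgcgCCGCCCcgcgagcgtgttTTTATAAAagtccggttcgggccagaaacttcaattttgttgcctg
Ccl7: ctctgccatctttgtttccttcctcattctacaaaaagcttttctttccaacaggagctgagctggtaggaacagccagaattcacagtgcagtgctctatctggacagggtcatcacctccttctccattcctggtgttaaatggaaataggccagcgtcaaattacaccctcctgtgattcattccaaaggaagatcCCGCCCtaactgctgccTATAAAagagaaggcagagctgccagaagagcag

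Ackr3 had 1 match to TATAAA, 54 bases before its start, and none to GGGCGG. Cxcl12 had 3 matches to GGGCGG and none to TATAAA. Cxcr4 had 3 to GGGCGG and an overlapping pair of TATAAA matches on opposite strands. Ccl7 had 1 of each and 2 CG dinucleotides, against 9 in Ackr3, 18 in Cxcr4 and 20 in Cxcl12. Over all 33469 promoter windows of this length, 12.9% held TATAAA and 30.5% GGGCGG, with a median of 5 CG dinucleotides. For the 83 chemokine and interleukin genes with an entry, these were 22.9%, 33.7% and 4. A match describes the letters of the window and is not a binding site.

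Ackr3 stood at log2 ratios of -3.21, -2.11, -3.13 and -3.13 in control samples 1 to 4 and at -1.69, 0.57, -2.29 and -1.37 in COH samples 1 to 4. It was thus below the reference on all control arrays and higher in the COH sample of every pair, but the groups overlapped, since COH 3 lay below control 2. The means were -2.89 ± 0.52 in control and -1.19 ± 1.24 in COH cells (SD, n = 4). The within-pair differences were 1.52, 2.68, 0.85 and 1.75, with a mean of 1.70 ± 0.76 (SD of 4 pairs), or 3.25-fold. Ackr3 rests on 1 spot. On 4 arrays, those of pairs 1 and 2, this spot had exactly the value of at least 2 other spots, and the part of these shared values in the difference was not tested. Such sharing was common on every array. From 50.9% (control 3) to 59.5% (control 1) of all values on an array were held by 3 or more spots.

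Cxcl12 had log2 ratios of 0.37, 0.36, -0.57 and -0.56 in the control and 0.31, -0.16, 0.09 and -0.23 in the COH samples. The groups overlapped throughout, with 2 pairs higher and 2 lower. Its mean difference was 0.10 ± 0.51 (SD of 4 pairs; 95% interval of the fit across all items from -0.74 to 0.94). Its 2 spots, which carry different transcript accessions, had mean ratios of 0.54 and -0.63 over the 8 arrays and differed between COH and control by -0.05 and 0.26. They went opposite ways in pairs 1 and 4.

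Cxcr4 had log2 ratios of -1.13, 1.40, -0.12 and -1.63 in the control and 0.18, -1.89, 0.81 and -1.23 in the COH samples. As the mean of 2 spots, pairs 1, 3 and 4 were higher in COH, by 1.30, 0.93 and 0.40. Pair 2 was lower, by a difference of -3.28. The mean was -0.16 ± 2.11 (SD of 4 pairs; 95% interval from -1.98 to 1.65), and without pair 2 it was 0.88, so the sign rests on that pair. The 2 spots of Cxcr4 have the same accession but lay at -1.64 and 0.74 on average over the 8 arrays. Both were lower in COH in pair 2 and higher in pair 3, but they went opposite ways in pairs 1 and 4. In pair 1 they went from -1.05 in control to -2.02 in COH and from -1.21 to 2.37. In pair 4 they went from -4.43 to -2.17 and from 1.17 to -0.28. The 3 genes of the axis therefore did not share a pattern over the pairs. Pair 2, in which Ackr3 had its highest difference, held the lowest of Cxcl12 and Cxcr4 as means of their spots. For Cxcl12 this rests on 1 of its 2 spots. The other was at 1.15 in control and 1.11 in COH in pair 2, and at 0.09 and -0.42 in pair 4.

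**Figure D1:**
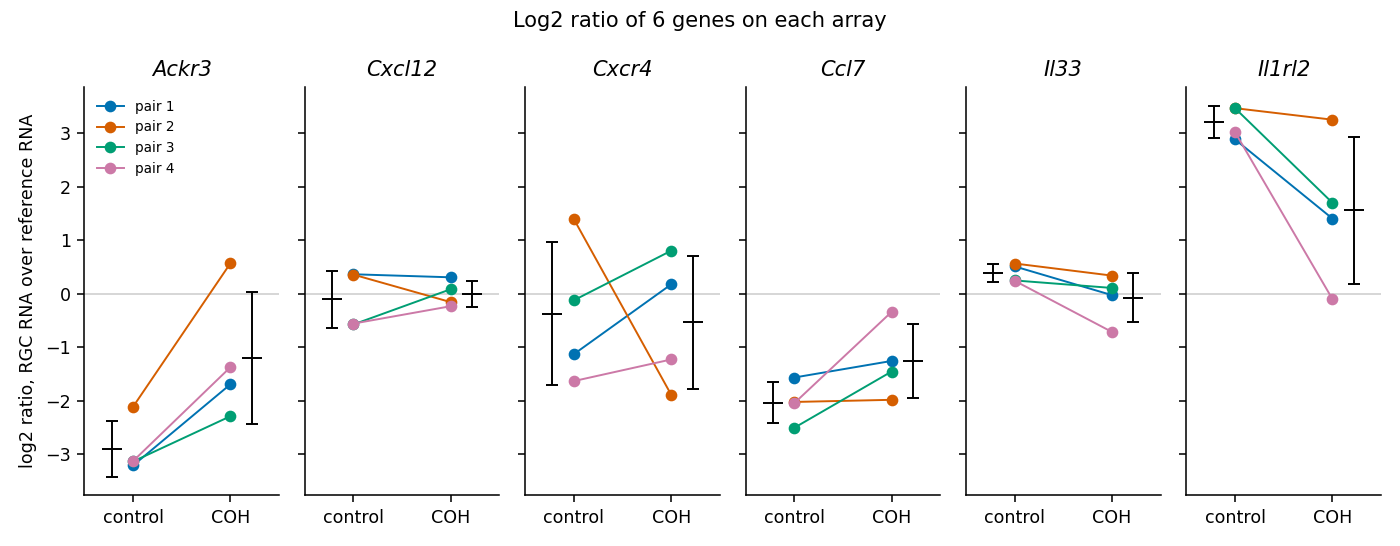
Log2 ratio of RGC over reference RNA (y axis) of Ackr3, Cxcl12, Cxcr4, Ccl7, Il33 and Il1rl2 in control and COH samples. Coloured points joined by a line are the arrays of 1 pair and the black bars the mean ± SD of 4 arrays. A gene with several spots is shown as their mean. Ackr3 and Ccl7 are higher in COH in every pair and Il33 and Il1rl2 lower, while the lines of Cxcl12 and Cxcr4 cross.

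Over all 18595 items fitted together (9792 named genes and 8803 unnamed probes), limma with the pair as a block called none after adjustment at 0.05, and its lowest adjusted p was 0.915. At an unadjusted p under 0.05 it gave 880 items (4.73%), the same 880 that meet the rule of the design text, which also asks for a change of at least 1.5-fold. None of the 58 chemokine and interleukin genes passed the adjusted threshold (0% of all items did). By the rule of the design text, 4 genes were called (4.73% of all items): 1 gene was higher in COH, namely Ackr3 (2.57% of all items), and 3 were lower, namely Il1rl2, Il5 and Ccr1l1 (2.17% of all items). Without pair 4 the rule took Ackr3 alone (3.65% of all items), and without pair 1 it took 7 genes (5.80% of all items). Il5 was also lost without pair 2 and without pair 3, and Ccr1l1 without pair 1 and without pair 3.

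The members as a whole were balanced. Mean differences were above 0 for 29 genes and below 0 for 29 (56.2% of all items were above 0), with a median of 0.01 against 0.08 over all items. The median was 0.01, -0.22, 0.19 and -0.01 in pairs 1 to 4. A mean difference of at least 1.5-fold was seen in 18 genes (25.9% of all items) and one of at least 2-fold in 6 (8.08%). In all 4 pairs, 5 genes were higher in COH (8.38% of all items), namely Ackr3, Ccl7, Il3ra, Il27ra and Cxcl9, and 6 were lower (4.66%), namely Il1rl2, Ccl4, Il5, Ccl19, Ccr1l1 and Il33. Control and COH values did not overlap for Cxcl9 alone in the higher direction (1.58% of all items) and Il5 alone in the lower (0.946%).

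**Figure D2:**
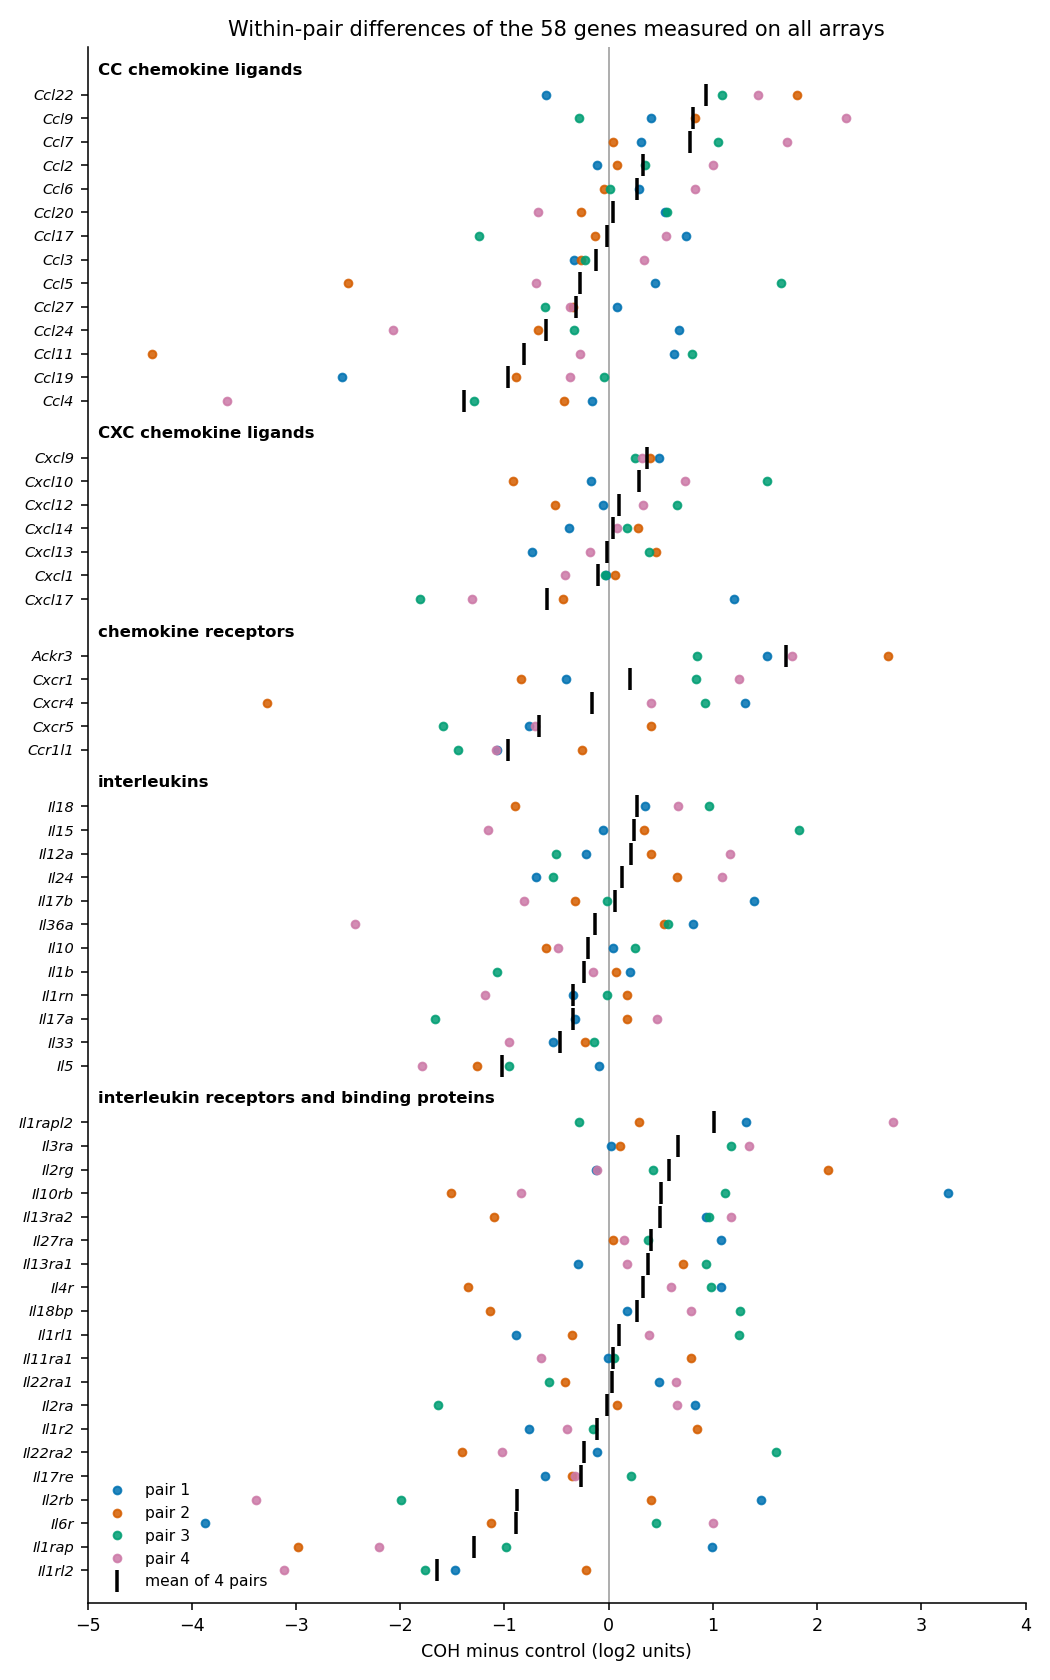
COH minus control (log2 units, x axis) for each of the 58 genes, by family. Coloured points are the 4 pairs and the black bar their mean. The genes lie on both sides of 0 in every family, Ackr3 at 1.70 has the highest mean and Il1rl2 at -1.64 the lowest, and most genes have pairs on both sides.

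Of the CC ligands, 14 of 19 were measured, with a median difference of -0.07 and 6 above and 8 below 0. Ccl7, a chemoattractant of monocytes, had log2 ratios of -1.56, -2.02, -2.50 and -2.04 in control and -1.25, -1.98, -1.45 and -0.34 in COH samples. As the mean of its 2 spots it was higher in every pair, by 0.31, 0.04, 1.05 and 1.71. The groups of this mean overlapped, since COH 2 lay below control 1. Taken singly, 1 spot was higher in every pair, with every COH value above every control value. The other was lower in pair 2, at -1.84 in control and -2.49 in COH. The mean difference of Ccl7 was 0.78 ± 0.75 (SD of 4 pairs), and 0.82 and 0.73 for these 2 spots. Ccl2, the main ligand of the monocyte receptor Ccr2, was far below the reference, at -2.78 ± 0.50 in control and -2.45 ± 0.28 in COH samples (SD, n = 4). Its pair differences were -0.11, 0.08, 0.35 and 1.0. Both genes thus had their highest difference in pair 4, and without that pair the mean difference was 0.47 for Ccl7 and 0.10 for Ccl2. Ccl22, a ligand of the T cell receptor Ccr4, had the highest mean difference of the CC ligands, 0.93 ± 1.06 (SD of 4 pairs), with pair 1 at -0.60. When spots with at least 3 complete pairs were also used, it was -0.29, so neither the sign nor the rank held.

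At the other end of the CC ligands, Ccl4, a chemokine made by activated macrophages, had ratios of 2.22, 2.70, 3.16 and 3.21 in control and 2.06, 2.26, 1.87 and -0.46 in COH samples. All COH values but 1 of them, that of COH 2, lay below the control range. The mean difference of -1.39 ± 1.59 (SD of 4 pairs) became -0.63 without pair 4. Ccl19, a ligand of the lymphocyte homing receptor Ccr7, differed by -0.97 ± 1.12, of which pair 1 contributed -2.56, and without that pair it differed by -0.44. Its spot shared its value with other spots on 6 of 8 arrays. Ccl5, a chemokine made by T cells and glia, had differences of 0.44, -2.50, 1.66 and -0.69, and its mean of -0.27 was 0.47 without pair 2. Ccl3, a macrophage chemokine like Ccl4, differed by -0.12 ± 0.31.

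Of the CXC ligands, 7 of 11 were measured, with a median difference of 0.04 and 4 above and 3 below 0. Cxcl9, an interferon-induced ligand of the T cell receptor Cxcr3, had ratios of 0.57, 0.65, 0.59 and 0.80 in control and 1.05, 1.04, 0.84 and 1.12 in COH samples. Every COH value lay above every control value. Its mean difference of 0.36 ± 0.10 (SD of 4 pairs), or 1.29-fold, was small, with the lowest SD over pairs among the 58 genes. On all 8 arrays its spot shared its exact value with at least 2 other spots. Cxcl10, induced by the same signals and acting on the same receptor, was at -2.29 ± 0.75 in control and -2.0 ± 0.53 in COH samples, with pairs on both sides of 0 and a mean difference of 0.29 that was -0.12 without pair 3. Besides Cxcl12, described above, the remaining CXC ligands had mean differences from -0.59 (Cxcl17) to 0.04 (Cxcl14, with ratios from 0.08 to 0.92 on the 8 arrays). Cxcl1, a neutrophil attractant, was among the most even, at -0.88 ± 0.10 in control and -0.99 ± 0.29 in COH samples.

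Of the 16 chemokine receptors, 5 were measured on all arrays: Ackr3, Cxcr4, Cxcr1, Cxcr5 and Ccr1l1. Ccr1l1, a rodent relative of the CC receptor Ccr1, had ratios of 3.98, 3.13, 2.91 and 1.90 in control and 2.91, 2.87, 1.46 and 0.83 in COH samples. The COH samples were lower in every pair, though the groups overlapped, with differences of -1.08, -0.26, -1.45 and -1.08 (mean -0.96 ± 0.50, SD of 4 pairs). Its spot had a shared value on COH 3 alone. Cxcr5, the receptor of Cxcl13 on B cells, was at 1.99 ± 0.52 in control and 1.33 ± 1.08 in COH samples. Its ligand Cxcl13 differed by -0.02 ± 0.56. Cxcr1, a receptor of neutrophil attractants, differed by 0.21 ± 1.0, with 2 pairs on each side and a mean of -0.14 without pair 4.

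Among the interleukins, 12 of 28 were measured, with a median difference of -0.16 and 5 above and 7 below 0. Il5, a growth factor of eosinophils, had ratios of -1.01, -0.40, -0.06 and -0.88 in control and -1.11, -1.66, -1.02 and -2.66 in COH samples. Every COH value lay below every control value, but only just, with COH 3 at -1.016 and control 1 at -1.013. The mean difference was -1.03 ± 0.71 (SD of 4 pairs). Its spot had a shared value on 7 of 8 arrays. Il1b, the main secreted interleukin 1 of activated microglia, was at -0.02 ± 0.81 in control and -0.26 ± 0.89 in COH samples as the mean of 7 spots, with 2 pairs on each side. Its 6 spots of the RefSeq transcript had differences from -1.20 to -0.13, while the spot of an expressed sequence tag had 0.88, so its sign too rests on the probe read. Without pair 3 the mean over spots was 0.04. Il10, an anti-inflammatory cytokine with 10 spots, differed by -0.20 ± 0.41, with single spots from -1.03 to 0.92 and a value of 0.28 from distinct-value spots only. Il18, which inflammasomes activate, lay well below the reference, at -2.52 ± 0.35 in control and -2.26 ± 0.51 in COH samples. Its binding protein Il18bp, which neutralises it, had the same mean difference to 2 decimals (0.27), with pair 2 below 0 for both, and Il18 differed by 0.04 without pair 3. Il1rn, the antagonist of the interleukin 1 receptor, had ratios of 0.86, 0.33, 0.49 and 0.35 in control and 0.52, 0.51, 0.48 and -0.84 in COH samples, so that COH 4 alone stood apart. Its mean difference of -0.34 was -0.06 without pair 4 and 0.02 when spots with at least 3 complete pairs were also used.

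Il33, an alarm cytokine stored in nuclei that Muller glia and astrocytes are known to make, had 3 spots, and these did not go together. As their mean, it was lower in every pair, with a mean difference of -0.47 ± 0.37 (SD of 4 pairs), or -0.30 without pair 4. The spot of an expressed sequence tag had ratios of 2.28, 3.07, 1.87 and 2.49 in control and 0.61, 1.84, 1.23 and 0.35 in COH samples, with every COH value below every control value. A spot of the RefSeq transcript had -1.67, -1.73, -1.76 and -2.04 in control and -1.53, -1.49, -1.54 and -1.12 in COH samples, with every COH value above every control value. The other spot of that transcript overlapped between groups, and the mean differences of the 3 spots were -1.42, 0.38 and -0.35. The sign for Il33 thus rests on which probe is read. Il1rl1, the receptor chain of Il33, was at -2.49 ± 0.99 in control and -2.39 ± 0.70 in COH samples.

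**Figure D3:**
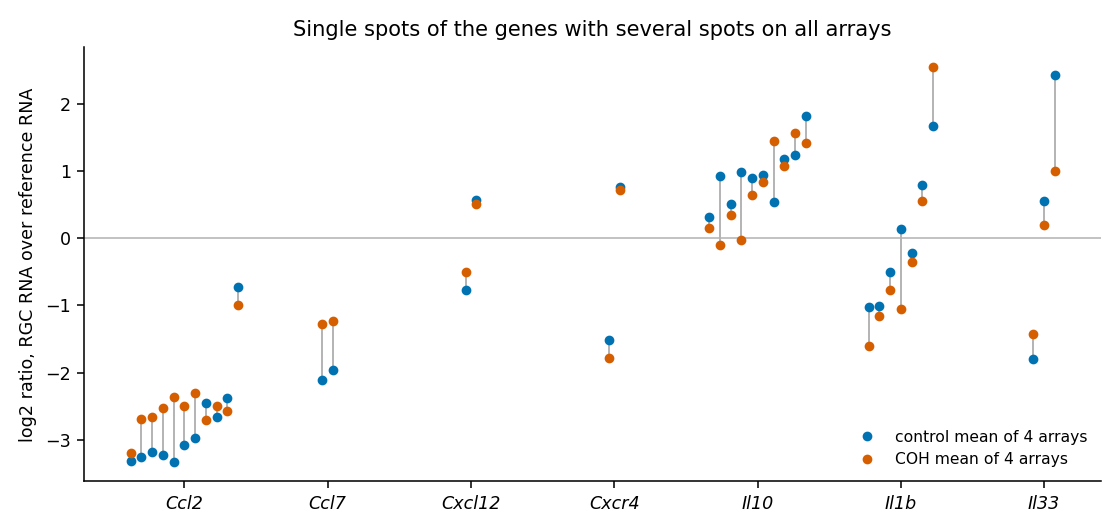
Mean log2 ratio over 4 control (blue) and 4 COH (orange) arrays for every spot of the 7 genes with several spots measured on all arrays, each spot joined by a grey line. Spots of Il33 run in opposite directions, the 2 spots of Cxcr4 lie at -1.64 and 0.74 on average over all arrays, and both spots of Ccl7 are higher in COH.

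Of the 33 interleukin receptors and binding proteins, 20 were measured, with a median difference of 0.07 and 12 above and 8 below 0. Il1rl2, the receptor of the interleukin 36 cytokines, had the lowest mean difference of the family. It was at 2.88, 3.47, 3.47 and 3.02 in control and 1.41, 3.25, 1.70 and -0.10 in COH samples, where COH 2 lay within the control range and the other COH samples below it. The mean difference was -1.64 ± 1.19 (SD of 4 pairs), which was -1.15 without pair 4, and on 4 arrays its spot had a shared value. Its ligand Il36a was higher in 3 pairs, by 0.81, 0.53 and 0.57, and at -2.43 in pair 4, so that its mean of -0.13 became 0.64 without that pair. Il1rap, the co-receptor that Il1rl2 shares with the receptors of interleukin 1 and Il33, differed by 0.99, -2.98, -0.99 and -2.21. Il1r2, the decoy receptor of interleukin 1, had the lowest control ratio of the family, at -3.68 ± 0.59, and differed by -0.12 ± 0.69 (0.10 without pair 1). Il1rapl2, a relative of these receptors, had the highest mean difference among interleukin receptors, 1.01 ± 1.32 (0.44 without pair 4), on a spot with shared values on 8 of 8 arrays.

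The chains of the common gamma family, which bind interleukins 2, 4 and 15 among others, had no common direction. The gamma chain Il2rg itself differed by 0.57 ± 1.05, Il2ra by -0.02 ± 1.12, Il2rb by -0.88 ± 2.21 and Il4r by 0.33 ± 1.13 (SD of 4 pairs). The spots of Il2ra and Il4r had shared values on all 8 arrays and that of Il2rb on 4. Il3ra, the binding chain of the interleukin 3 receptor, was higher in every pair, by 0.02, 0.11, 1.17 and 1.35, with a mean of 0.66 (0.43 without pair 4). Its COH values, from -1.77 to -1.33, were closer to each other than its control values, from -2.94 to -1.41. Il27ra was higher in every pair too, by 1.08, 0.04, 0.38 and 0.15, with both values of pair 1 above those of all other arrays, and its mean of 0.41 was 0.19 without that pair. Il13ra1, which serves interleukins 4 and 13, differed by 0.38 ± 0.55. Il10rb had the highest single-pair difference of the 58 genes, 3.26 in pair 1, beside -1.51 in pair 2, on a spot with shared values on all 8 arrays.

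In control cells, 16 of the 58 genes were above the reference RNA on all 4 arrays (22.3% of all named genes) and 20 were below it (45.9%). The median control ratio was -0.19, against -0.41 over all named genes. The 6 highest were Il1rl2 (3.21), Ccr1l1 (2.98), Ccl4 (2.82), Ccl19 (2.07), Cxcr5 (1.99) and Il36a (1.92). The 6 lowest were Il1r2 (-3.68), Il13ra1 (-3.05), Ackr3 (-2.89), Cxcr1 (-2.82), Ccl2 (-2.78) and Il18 (-2.52). These are ratios to a reference and not amounts of RNA. The first 5 of the highest had mean differences below -0.6 and Il36a one of -0.13, while 5 of the 6 lowest were above 0, with Il1r2 as the exception.

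Because the control ratio is part of each difference, the differences were also set against the ratio on other arrays. For each pair the genes were grouped by their mean ratio on the 6 arrays of the other pairs. In pair 4, 11 of 13 genes with a mean above 1 were lower in COH (median difference -0.71) and 13 of 16 genes with one below -1 were higher (0.89). Over all items of pair 4 the medians were -0.45 and 0.34, with the same signs at both ends. In pair 3 the medians of the genes were -1.37 (10 genes) and 0.70 (16 genes), against 0.43 and 0.57 over all items. Pairs 1 and 2 had medians from -0.16 to -0.07 in these groups, each of which holds fewer than 20 genes. The part of this in the differences of single genes was not tested.

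**Figure D4:**
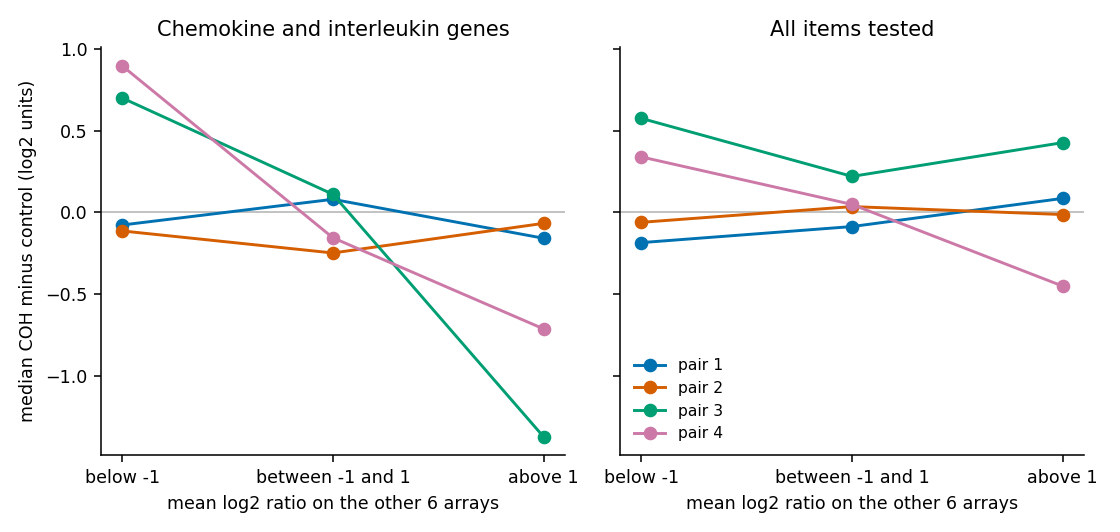
Median COH minus control (log2 units, y axis) by the mean log2 ratio of a gene on the 6 arrays of the other pairs, for the chemokine and interleukin genes and for all items tested. Each line is 1 pair. Pairs 3 and 4 slope down for these genes, from 0.70 and 0.89 to -1.37 and -0.71, while over all items the upper end is at -0.45 in pair 4 and from -0.01 to 0.43 in the other pairs.

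Arrays differed in how well repeated spots of 1 transcript agreed. For the 10 spots of Ccl2 with the same accession, the SD within an array ran from 0.41 to 0.64 on the control arrays and from 0.42 to 0.98 on the COH arrays. For the 10 spots of Il10 it ran from 0.69 to 1.35 over all arrays. A single spot can thus be off by as much as many of the differences above, and 51 of the 58 genes rest on 1 spot. A spot whose value at most 2 spots of an array share, on all 8 arrays, was present for 22 of the 58 genes. Over all items it was present for 8278 of 18595. Averaged over all their spots, those 22 had differences from -0.47 to 0.78, and Ackr3, Il1rl2, Il5 and Ccr1l1 are not among them. Read from distinct-value spots only, Il1b (0.88) alone met the rule of the design text, as higher (5.21% of all items with such spots). That value is the spot of an expressed sequence tag, while the 6 RefSeq spots of Il1b differed by -1.20 to -0.13. The array of COH 4 also had the widest variation with position on the slide, with a range of 1.30 between blocks of spots, against 0.25 to 0.92 on the other arrays.

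The other 49 genes had no single spot with a value on all arrays, and 16 of them had a spot with at least 3 complete pairs. Il2, the T cell growth factor, was lower in COH in 3 of 3 pairs, with differences of -1.34, -1.35 and -1.42. Its value on control 1 (0.19) was exactly that of Il4, and its value on COH 1 (-1.15) exactly that of Il1f10 and Cxcl11. Ccr9, a gut homing receptor, was lower in 3 of 3 pairs with a mean difference of -1.08 ± 1.04 (SD), as was Il21r with -1.05 ± 0.75. The value of Il21r on control 1 (-1.11) was exactly that of Il1f10. Shared values were not counted for these 16 genes. Higher in 3 of 3 pairs were Ccl26 (1.10 ± 0.62), Cxcl3 (0.88 ± 0.58) and Ccl21 (0.24 ± 0.14). The share of all items with the same direction in 3 of 3 pairs was not computed, so these genes are listed as a description only. Il4 had 4 complete pairs over its spots and differed by -0.21 ± 0.62. The remaining 9 genes had pairs on both sides of 0, with mean differences from -1.33 (Il9r) to 1.21 (Ccr4). A further 33 genes had fewer complete pairs and are not described by values, among them the receptor Ccr2, Il1a and Il1r1.

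Relatives named differently and downstream genes were looked at as lists. Cx3cl1, the fractalkine that neurons carry on their surface, had ratios of -0.02, -0.05, -0.55 and -0.17 in control and -0.14, 0.12, -0.37 and 0.89 in COH samples, a mean difference of 0.32 ± 0.51 (SD of 4 pairs). This was 0.08 without pair 4 and 0.05 with the position trend removed. Its receptor on microglia, Cx3cr1, had 3.04, 2.64, 2.80 and 2.79 in control and 1.12, 1.13, 1.45 and -0.63 in COH samples. Its COH values all lay below its control values (0.946% of all items). Cx3cr1 had no spot with distinct values on all arrays, and its mean difference of -2.05 was -1.59 without pair 4. Of the 8 measured relatives among 10 listed, Cx3cr1 alone met the rule of the design text, which 4.73% of all items met. Of 20 genes of chemokine receptor signalling (G proteins, arrestins, receptor kinases and Rac), 16 were measured and none met it, with a median difference of 0.03. Arrb1, the arrestin that binds receptors such as Ackr3, differed by 0.32 ± 0.45. Of 27 genes of interleukin signalling (Janus kinases, STAT factors, their inhibitors and the Myd88 branch), 18 were measured with a median of 0.11. Only Socs3, an inhibitor induced by cytokines, met the rule, as lower (-1.59 ± 1.28).

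Markers of the cells that make or answer these factors were read in the same way. Of 12 microglia and macrophage markers, 9 were measured. In control samples 6 of them exceeded the reference throughout (22.3% of all named genes did) and 2 lay under it (45.9%). Their array means ran from 0.08 to 0.62 in control and from -0.09 to 0.47 in COH samples. Their mean differences were above 0 for 4 and below 0 for 5. Cx3cr1 (-2.05 ± 0.95), which alone met the rule of the design text, and Trem2 (-0.55 ± 0.28) were lower in 4 of 4 pairs, and Tyrobp was higher (0.37 ± 0.31). Over all items, 4.73% met that rule, 4.66% were lower in all pairs and 8.38% were higher in all pairs. Of 7 markers of Muller glia and astrocytes, 6 were measured, 2 with a mean above and 4 with one below 0. Aldh1l1 (-0.92 ± 0.54, meeting the rule) and Aqp4 (-0.57 ± 1.06) were lower in 4 of 4 pairs and Glul higher (0.83 ± 1.10). Of 10 T and B cell markers 3 were measured, with array means from -1.85 to -1.35 in control and from -2.41 to -0.97 in COH samples, and differences of 0.93 (Cd3g, higher in 4 of 4 pairs and meeting the rule of the design text), -0.55 (Cd3d) and -0.23 (Cd3e). Of 5 neutrophil markers S100a8 alone was measured (control 2.10 ± 0.45, COH 1.29 ± 1.16). Of 11 RGC markers 8 were measured, with array means from -0.36 to 0.73 in control and from -0.11 to 0.20 in COH samples, while Nefh, Pou4f1 and Pou4f2 lacked a value on at least 1 array. Of these 8, 1 exceeded the reference in every control sample (22.3% of all named genes did) and 1 lay under it (45.9%). Most RGC markers, like most named genes, were thus not steadily above the reference. Their mean differences were above 0 for 4 and below 0 for 4, from 0.55 (Stmn2) to -1.28 (Thy1, a surface protein of RGCs, lower in 3 of 4 pairs), and Thy1 alone met the rule of the design text. In such bulk samples fewer cells of a type and less RNA per cell cannot be told apart, and the part of these cells in the differences was not tested.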

How the data were processed

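Purified RGCs of 4 control and 4 COH samples were measured on 8 two-colour Agilent rat arrays, with RGC RNA in Cy5 and reference RNA in Cy3 per the labels. The deposited values are log2 ratios per spot, which per the design text the authors normalised by Lowess and limited by Agilent's quality control. The software is not stated in the labels. Base 2 was inferred, since frequent repeated values lie exactly 2 apart (tolerance 2e-05), and the direction from the dyes. Each array held 32101 to 42076 of 45220 spots, and median ratios ran from -0.06 to 0.13; signal intensities were not used here, and the number of arrays limits the precision.

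Symbols came from the probe table, updated by gene identifier for 25306 of 25353 spots with 1 symbol (48 spots had several and 19819 none). Spots complete over the 8 arrays (22856) were averaged per symbol, giving 18595 items. These were fitted with limma (version 3.58.1, R 4.3.3), blocking on the replicate number, with Benjamini-Hochberg adjustment at 0.05; the script was tested on simulated data. The pairing comes from the design text (both eyes of the same animals). Deviations of same-numbered arrays correlated at 0.02 to 0.09 and those of different-numbered arrays at -0.19 to 0.09, so they did not set the pairs apart. The p-values rest on how the within-pair differences vary from pool to pool, which includes the noise of the arrays. Members and lists were chosen with earlier results of these data known. Named genes were a fixed list (Ackr3, Cxcl12, Cxcr4 and other well-known members), those with 1 direction in 4 of 4 pairs, the 6 highest and lowest control ratios, and the extremes of each family; any other gene was named with its values already known. Alternatives covered scaling between arrays, pairing, spot filters, position, array weights and each pair left out.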

Additional observations from a re-analysis of the deposited data

Results flagged for a closer look

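A sample far from the other 3 of its group was looked for in the control and COH values of 30 named genes, 60 groups in all, and 8 had one, where chance marks about 1 in 20. Ackr3 in control replicate 2 was at -2.11, with the other controls from -3.21 to -3.13. In COH replicate 4, Ccl4 was at -0.46 (others 1.87 to 2.26), Cx3cr1 at -0.63 (1.12 to 1.45) and Il1rn at -0.84 (0.48 to 0.52). Il18 in COH replicate 2 was at -3.01 (others -2.07 to -1.92), and Il1b in control replicate 4 was at -1.22 (0.28 to 0.50). Il27ra stood apart in both samples of pair 1, at 1.18 in control (others 0.16 to 0.33) and 2.25 in COH (others 0.31 to 0.56), so its within-pair difference of 1.08 is the difference of 2 outlying values.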

How the results depend on the processing

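No chemokine or interleukin gene passed the adjusted threshold under any of the 12 alternatives run. The count meeting the rule of the design text was 4 of 58 with the replicate block (4.73% of all items) and without it (3.75%). The paired and unpaired fits shared Ackr3, Il1rl2 and Il5, and Ccl4 took the place of Ccr1l1 without the block. The count ranged from 1 to 7 with each pair left out (3.65% to 5.80% of all items). With distinct values only, where 36 genes have no spot, it was 1 of 22 (5.21% of all items there). That gene was Il1b, as higher, on the spot of an expressed sequence tag alone. The median difference lay between -0.09 and 0.10 over the alternatives, within the range of the medians of single pairs. Ackr3 ranged from 1.37 to 1.98 over the 11 alternatives that could give it a value. Cxcl12 ranged from -0.08 (without pair 3) to 0.31 and Cxcr4 from -0.65 to 0.88, both with a change of sign. Of 30 named genes, 19 kept their sign in every alternative run. Of 341 values, 4 moved by over 1 SD of the pairs, among them Il1b to 0.88 and Il10 to 0.28 with distinct values only, and Ccl22 to -0.29 with at least 3 complete pairs. The causes were not tested.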

Other observations

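Several of these genes lie next to each other among the protein-coding genes of the rat reference annotation (GRCr8), and their differences are given side by side. Ccl2 (0.33), Ccl7 (0.78) and Ccl11 (-0.81 ± 2.43, with pair 2 at -4.38 and 2 pairs higher) follow each other, as do Ccl5 (-0.27), Ccl9 (0.81 ± 1.08), Ccl6 (0.27 ± 0.40), Ccl3 (-0.12) and Ccl4 (-1.39). Cxcl10 (0.29 ± 1.06) and Cxcl9 (0.36) are neighbours, as are Il1rl2 (-1.64) and Il1rl1 (0.10 ± 0.93). Ccl27 (-0.31 ± 0.29) lies between Il11ra1 (0.04 ± 0.59) and Ccl19 (-0.97). Values are mean COH minus control differences in log2 units, with the SD of 4 pairs where it is not given above, and no test was made of neighbours.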
